A study of Mus musculus with 10 samples.

Results

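Serpins are a family of proteins that mostly inhibit proteases. An inhibitory serpin presents a loop, the reactive centre loop, which the target protease cuts, and the cut serpin then traps the protease in a covalent complex. The family is divided into clades. Clade A holds secreted inhibitors of the alpha-1-antitrypsin and antichymotrypsin type, clade B holds mostly intracellular inhibitors, and the later clades hold regulators of coagulation, of plasminogen activation and of complement. Some members, such as the collagen chaperone Serpinh1, keep the fold without inhibiting proteases. In the uterus, proteases and their inhibitors act in remodelling of the tissue during the cycle and in pregnancy.

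The members were all protein-coding genes of the deposited table whose name starts with Serpin, 40 of 29268 genes. Uterine RNA was sequenced from 5 HSD17B1TG and 5 wild-type (WT) female mice of the FVB/N strain aged 4 months. Each mouse gave 1 library. HSD17B1TG mice are heterozygous for a transgene of human HSD17B1 cDNA, an enzyme that activates estrogens, driven by the chicken beta actin promoter with a CMV enhancer, which is active in most cell types. The transgenic females do not cycle, whereas the WT uteri were collected at a random phase of the cycle. Below, TG1 to TG5 stand for the HSD17B1TG mice and WT1 to WT5 for the controls. The transgene is of human sequence and was not measured here.

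The libraries held 14817228 to 23271988 counts. No pair of libraries of a group agreed within sampling noise, as identical libraries would (mean chi-square per gene of at least 56.9). Markers of smooth muscle, epithelium and stroma were detected in every mouse. Levels are given as FPKM, which are fragments scaled to gene length and to a size factor of each mouse. The summed FPKM of 10 epithelial markers ranged from 648 to 3002 in HSD17B1TG and from 479.7 to 1606 in WT, with WT4 the highest. All 10 had a log2 fold change above 0, with a median of 1.22, and none of the 10 passed the test. The summed FPKM of 10 stromal markers ranged from 619 to 2344 in HSD17B1TG and from 2087 to 2688 in WT, and 5 of the 10 were called down. The summed FPKM of 8 smooth muscle markers ranged from 867 to 7350 in HSD17B1TG, with TG5 the lowest and TG1 the highest, and from 407 to 5776 in WT, with WT3 the lowest and WT4 the highest. All 8 had a log2 fold change above 0, with a median of 0.64, and none passed the test. In whole tissue, fewer cells of a type and less RNA per cell cannot be told apart. The part of these marker levels in the results below was not tested.

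The members lay in clusters. Chromosome 12 held 14 of them, chromosome 1 held 9, chromosome 13 held 9 and chromosome 11 held 2, with 6 others on 6 chromosomes. Of the 40 members, 21 had enough counts to be tested. The other 19 members reached at most 76 counts in any mouse. Ranked by mean FPKM, Serping1, Serpinh1, Serpinf1, Serpina1c and Serpinb6a were the 5 highest members, and 3 members exceeded a mean of 100 FPKM in either group.

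The alpha-1-antitrypsin genes are Serpina1a to Serpina1e, and the 4 of them that were tested had the highest fold changes of the members tested, so the sequences of the family are shown. They are tandem copies, and their coding sequences were 96.3% to 98.5% identical over 1239 bases. The stretch that encodes the reactive centre loop is where these inhibitors contact their target. In the 90 bases below, from the GENCODE M21 transcripts (GRCm38), capitals mark the 18 bases that are not the same in all 5 genes.
Serpina1a: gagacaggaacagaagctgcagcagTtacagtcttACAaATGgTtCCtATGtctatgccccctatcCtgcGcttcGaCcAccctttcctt
Serpina1b: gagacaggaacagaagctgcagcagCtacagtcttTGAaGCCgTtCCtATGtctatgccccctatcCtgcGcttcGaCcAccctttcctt
Serpina1c: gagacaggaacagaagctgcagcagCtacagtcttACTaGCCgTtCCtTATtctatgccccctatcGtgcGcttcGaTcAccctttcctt
Serpina1d: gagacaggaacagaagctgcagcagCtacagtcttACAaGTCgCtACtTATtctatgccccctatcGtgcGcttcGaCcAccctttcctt
Serpina1e: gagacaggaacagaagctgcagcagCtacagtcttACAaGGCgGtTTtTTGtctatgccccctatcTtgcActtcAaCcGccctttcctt

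Pairs of these stretches differed at 5 to 12 of 90 bases, while 72 bases were shared by all. A read from this stretch can therefore be assigned where it covers the capitals. Elsewhere the copies are harder to tell apart. Of all windows of 150 bases, the length of a read, in the transcripts of Serpina1c, 50.5% also occurred in another gene. The share was 35.1% for Serpina1a, 23.3% for Serpina1d, 11.9% for Serpina1b and 7.36% for Serpina1e. The treatment of reads with several matches is not given in the sources used here, so the split of counts among these genes is uncertain.

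The promoter windows of these genes, which reach from 250 bases before to 50 bases after the RefSeq start site, also had a long run in common. The windows of Serpina1c, the highest of the copies, and of Serpina1e, the lowest that was tested, are printed with this run in capitals (RefSeq, GRCm38.p6, minus strand, chr12:103904901-103905200 and chr12:103956848-103957147).
Serpina1c: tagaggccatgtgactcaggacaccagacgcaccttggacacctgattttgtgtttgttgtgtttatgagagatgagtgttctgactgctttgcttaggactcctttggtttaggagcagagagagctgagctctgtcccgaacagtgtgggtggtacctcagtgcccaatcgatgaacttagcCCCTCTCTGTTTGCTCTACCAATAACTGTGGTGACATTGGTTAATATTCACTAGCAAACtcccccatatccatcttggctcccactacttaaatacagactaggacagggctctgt
Serpina1e: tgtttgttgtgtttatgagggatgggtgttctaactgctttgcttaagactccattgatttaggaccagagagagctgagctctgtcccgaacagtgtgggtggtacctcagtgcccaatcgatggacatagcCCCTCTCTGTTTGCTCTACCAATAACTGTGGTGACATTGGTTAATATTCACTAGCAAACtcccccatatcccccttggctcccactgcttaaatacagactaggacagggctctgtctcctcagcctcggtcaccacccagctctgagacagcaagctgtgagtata

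The run of 59 bases occurred unbroken in the windows of Serpina1a, Serpina1b, Serpina1c, Serpina1d and Serpina1e. It was found in these 5 of 32851 windows, 0.0152%, on either strand. It began 117 bases before the start site in Serpina1e and 55 to 66 bases before it in the other copies. The estrogen response element (GGTCANNNTGACC) was searched for in the 41 windows of the 35 members that the promoter table holds. None of them contained it, and 0.07% of all windows did. The STAT site (TTCNNNGAA) was in windows of 6 members, Serpina11, Serpina3f, Serpina3g, Serpina3i, Serpinb2 and Serpinb6a, which is 9 of the 41 member windows, and in 8.3% of all windows. The interferon-stimulated response element (GAAANNGAAA) was in 2 of the 41 member windows, those of Serpinb6a and Serpinb9, and in 3.44% of all windows. For the STAT site, windows of Serpina11, Serpina3f and Serpinb2 overlap and hold the same match, so it enters the count repeatedly. All these matches are descriptions of the letters and not evidence of binding.

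HSD17B1TG was compared with WT to ask which serpins differ between the uteri of the groups. The paper describes the transgenic females as being under constant estrogen stimulation. It also reports reduced serum progesterone in them at this age, and no significant difference in serum estradiol. Whether estrogen, progesterone or cycle phase accounts for any difference below was not tested. A gene was called when the adjusted p-value of edgeR was under 0.05, the fold change was over 2 and the mean FPKM was over 1 in either group. By this rule, 5 members rose, namely Serpina1b, Serpina1c, Serpina9, Serpinb8 and Serping1, out of 21 tested, whereas 2.16% of all 16993 genes tested were called up. Serpine2 and Serpinh1 fell, and 2.08% of all genes tested were called down. Altogether 7 members had an adjusted p-value under 0.05, as had 6.16% of all genes. The median log2 fold change was 0.67 over the members tested and 0.00 over all genes tested. A member with few counts passed the filter through the group where it is high, so the members tested do not stand for all 40. FPKM were higher in every HSD17B1TG mouse than in every WT mouse for 6 members tested, compared with 4.04% of all genes, and lower in every HSD17B1TG mouse for 1, compared with 2.65%.

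**Figure D1:**
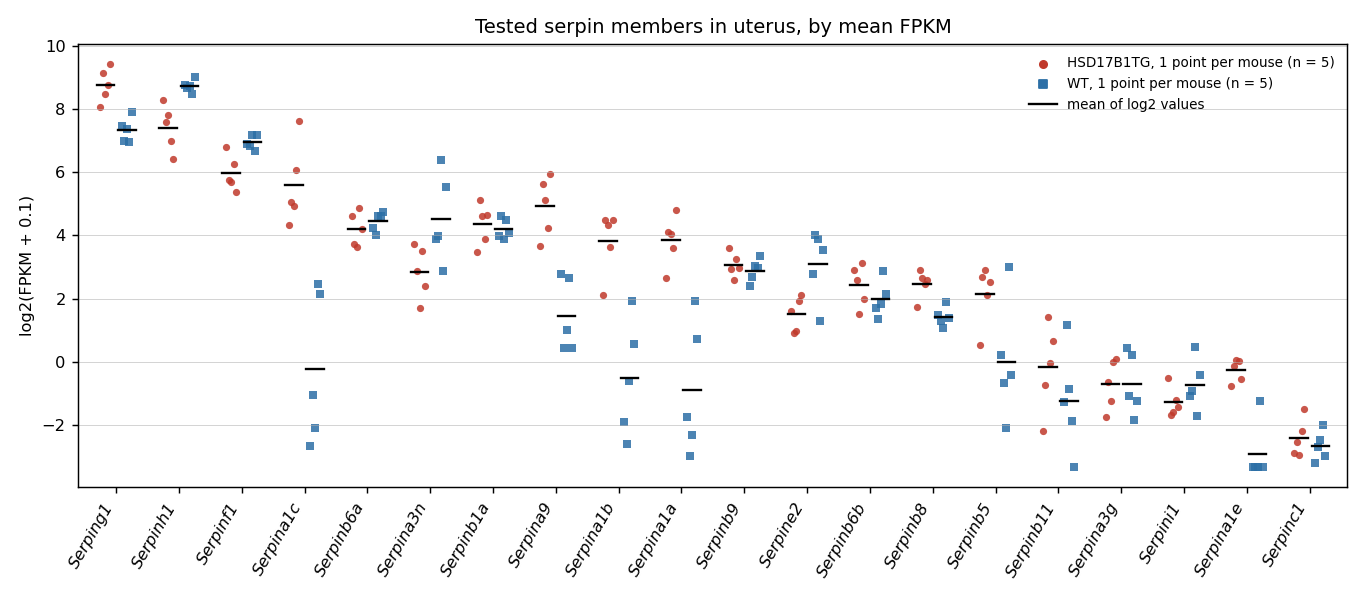
FPKM of 20 tested members on the scale log2(FPKM + 0.1), with 1 point per mouse and a bar at the mean of the log2 values of each group (n = 5), ordered by mean FPKM. The groups lie farthest apart for Serpina1a, Serpina1b, Serpina1c and Serpina9, and Serpinh1 lies lower in every HSD17B1TG mouse than in every WT mouse.

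The calls depended on the mice included. All 7 members called kept their direction whichever mouse was left out. Without TG2, TG5, WT2 or WT3, however, none of the 7 had an adjusted p-value under 0.05 in edgeR, and 1 of them had without TG4 or WT1 (Serpina9) or WT5 (Serping1). Without TG1 or TG3, 6 of the 7 passed. Without TG1, WT1, WT3 or WT4 a further member, Serpina11, was under 0.05, which had too few counts to be tested with all mice. Without TG1, Serpina1a and Serpinf1 were under 0.05 as well. Without WT4 there were 13 members under 0.05, among them all 7, and 8 members were called up and 3 down. WT4 was the WT mouse with the highest FPKM in 3 of the 5 members called up, and the lowest in both members called down. WT4 and TG1 also had the highest smooth muscle sum of their groups. The epithelial sum was highest in WT4 among the WT mice (1606), and lowest in TG1 (648) and highest in TG5 (3002) among the HSD17B1TG mice. The part of these sums in the calls was not tested. Among the HSD17B1TG mice, TG1 was the lowest in all 5 members called up and TG5 was the highest in 4 of them.

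Serping1 encodes the C1 inhibitor, which blocks the complement proteases C1r and C1s and proteases of the contact system. It was the most abundant serpin of the HSD17B1TG uterus. Its FPKM were 266, 561, 351, 429 and 681 in TG1 to TG5 and 174, 125, 166, 123 and 239.9 in WT1 to WT5. All HSD17B1TG mice lay above all WT mice. Its mean was 458 ± 166 (SD, n = 5) in the transgenic mice and 166 ± 47.5 in the controls, and Serping1 rose by 1.46 on the log2 scale (SE 0.29, edgeR adjusted p = 0.0256). TG1, the lowest HSD17B1TG mouse in Serping1, had an epithelial marker sum of 648, a stromal one of 2344 and a smooth muscle one of 7350, the highest of all mice. The adjusted p-value was under 0.05 without TG1, TG3, WT4 or WT5 and between 0.0535 and 0.0682 without any of the other mice.

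Serpinh1 (HSP47) is a collagen-specific chaperone of the endoplasmic reticulum. Its FPKM were 309.9, 193, 221, 126 and 85.5 in TG1 to TG5 and 434, 402, 427, 354 and 518 in WT1 to WT5. Here all HSD17B1TG mice lay below all WT mice. Serpinh1 fell, with a log2 fold change of -1.20 (SE 0.31, edgeR adjusted p = 0.0471) and a mean of 187 ± 87.2 in HSD17B1TG and 427 ± 59.9 in WT. Of the stromal markers, which include collagens, 5 of 10 fell as well. The adjusted p-value was under 0.05 without TG1, TG3 or WT4 and was 0.0782 to 0.101 without any other mouse. It was 0.0507 without the filter on low counts.

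The order of the most abundant serpins thus differed between the groups. In WT, Serpinh1 made up 51.6% ± 2.86 (SD, n = 5) of the summed FPKM of the members and Serping1 19.7% ± 2.61. In HSD17B1TG, Serping1 made up 47.9% ± 9.85 and Serpinh1 21.3% ± 11.9. The ratio of Serping1 to Serpinh1 was 0.859, 2.91, 1.59, 3.42 and 7.97 in TG1 to TG5 and between 0.312 and 0.463 in WT. Serpinh1 was above Serping1 in all WT mice and in TG1 alone among the HSD17B1TG mice. The summed FPKM of all members overlapped, with 796 to 1203 in HSD17B1TG and 684 to 1032 in WT.

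**Figure D2:**
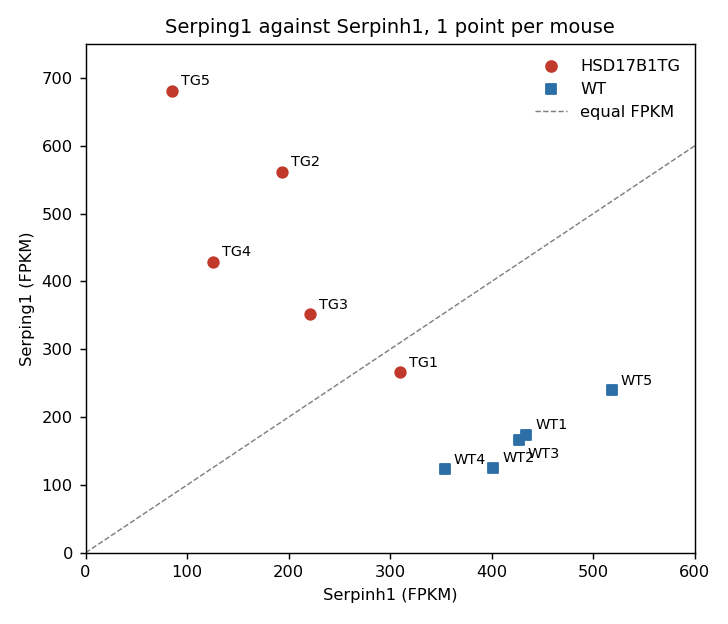
Serping1 FPKM (vertical axis) against Serpinh1 FPKM (horizontal axis), with 1 point per mouse and a dashed line where the values are equal. The WT mice and TG1 lie on the side of the line where Serpinh1 is higher, TG2 to TG5 lie on the other side, and TG5 has the highest Serping1, 681, and the lowest Serpinh1, 85.5.

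Serpinf1 encodes pigment epithelium-derived factor, a secreted non-inhibitory serpin known for its action against vessel growth. Its FPKM were 111, 53.9, 51.8, 76.6 and 41.6 in TG1 to TG5 and 118, 114, 145, 101 and 144 in WT1 to WT5. TG2 to TG5 lay below all WT mice and TG1 lay within the WT range. A log2 fold change of -0.90 (SE 0.26) did not pass the test (edgeR adjusted p = 0.0593). The adjusted p-value was under 0.05 in 4 of 10 alternative settings with all mice, at 0.0177 in DESeq2, and without TG1 (0.0151) or WT4 (0.0425), but not without any other mouse. Serpinf2, the inhibitor of plasmin, was at or below 0.187 FPKM in every mouse and was not tested.

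The alpha-1-antitrypsin family inhibits neutrophil elastase in man, and its main source is the liver. Of its 5 members, 4 were tested, 2 were called up and none fell. Over all genes tested, 2.16% were called up and 2.08% were called down. Serpina1c had FPKM of 19.9, 33.3, 30.2, 66.6 and 196 in TG1 to TG5. In WT1 to WT5 its FPKM were 0.0598, 0.387, 0.137, 5.44 and 4.34. The groups did not overlap, WT1 to WT3 were near 0 and TG5 was far above the other HSD17B1TG mice. Serpina1c rose by 5.05 on the log2 scale (SE 1.16, edgeR adjusted p = 0.0366), with a mean of 69.2 ± 73.1 in HSD17B1TG and 2.07 ± 2.61 in WT. The log2 fold change was 4.17 without TG5 and 5.79 without WT4.

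Serpina1b had FPKM of 4.27, 22.3, 20.03, 12.3 and 22.4 in TG1 to TG5 and 0.168, 0.0654, 0.565, 3.75 and 1.37 in WT1 to WT5. The groups were again separate, with TG1 close to WT4. Serpina1b rose by 3.78 on the log2 scale (SE 0.92, edgeR adjusted p = 0.0414), and by 4.89 without WT4. Serpina1a had FPKM of 6.24, 17.3, 16.4, 12.2 and 27.8 in TG1 to TG5 and 0.200, 0.0287, 0.102, 3.75 and 1.55 in WT1 to WT5. Although its groups did not overlap either, the log2 fold change of 3.82 (SE 1.01) had an edgeR adjusted p-value of 0.0506, just above the threshold. Without WT4 it was 5.06, and the adjusted p-value was 0.0115 without WT4, 0.0369 without TG1 and 0.0592 to 0.108 without any other mouse. With all mice, the adjusted p-value of Serpina1a was under 0.05 in 7 of 9 alternative settings, at 0.000686 in DESeq2, and that of Serpina1e in 5 of 8.

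The remaining copies were at low levels. Serpina1e lay between 0.498 and 0.953 FPKM in HSD17B1TG, and among the WT mice it was above 0 only in WT4, at 0.329 (log2 fold change 3.42, SE 1.00, edgeR adjusted p = 0.0634). The size of this difference rested on WT4, since the log2 fold change was 7.51 without it (adjusted p = 0.00362) and 3.06 to 3.54 without any other mouse, with no other adjusted p-value under 0.05. Serpina1d had 31 counts in the 5 HSD17B1TG mice together and 0 in the WT mice. Set against a floor of 3 counts over the WT group, its mean count relative to the library total was at least 10.8-fold higher in HSD17B1TG. It had too few counts for the main test, and its adjusted p-value was 0.000677 in DESeq2 and 0.0365 in edgeR without the filter on low counts.

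Since reads may be shared among the copies, the family was also tested as 1 summed count. The summed FPKM were 31.0, 73.9, 67.8, 92.3 and 248 in TG1 to TG5 and 0.428, 0.481, 0.803, 13.3 and 7.26 in WT1 to WT5. This sum had a log2 fold change of 4.39 (SE 1.03, edgeR adjusted p = 0.0379). Serpina1c contributed 44.6% to 79.2% of the summed FPKM in HSD17B1TG. For Serpina1b and Serpina1c alike, the adjusted p-value was under 0.05 without TG1, TG3 or WT4 and 0.0593 to 0.0939 without any other mouse. The annotated pseudogene Gm8893, which lies within Serpina1b on the same strand, showed the same order of the groups, with 8.64 to 61.8 FPKM in HSD17B1TG and 0.0655 to 6.004 in WT (log2 fold change 3.95, edgeR adjusted p = 0.0481). Windows of 150 bases that it shared with the Serpina1 genes made up 8.05% of its transcript.

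The family is a marker of liver cells, so other hepatocyte genes were examined. Of 8 hepatocyte markers, 6 were analysed here and 1, Hpx, had enough counts to be tested. Their summed FPKM were 0.497 to 1.26 in HSD17B1TG and 0.699 to 18.2 in WT, the latter in WT3 through Ttr. Alb was at 0 in all mice but TG2, where it was 0.0491 FPKM.

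Serpina9, a clade A member known from germinal centre B cells, lies beside this family on chromosome 12. Its FPKM were 12.6, 49.6, 34.7, 18.7 and 61.4 in TG1 to TG5 and 6.84, 1.28, 1.92, 6.18 and 1.25 in WT1 to WT5. The groups did not overlap, and WT1 and WT4 were the highest WT mice. Serpina9 rose by 3.34 on the log2 scale (SE 0.63), and its edgeR adjusted p-value of 0.0234 was the lowest of the members. It was under 0.05 without TG1, TG3, TG4, WT1 or WT4 and 0.0578 to 0.0593 without any other mouse. The summed FPKM of the markers of B and plasma cells overlapped between the groups, with 8.33 to 21.4 in HSD17B1TG and 5.29 to 29.8 in WT. Gm28577, an annotated gene on the same strand, overlaps both Serpina9 and Serpina11. Of the windows of 150 bases, 29.9% of those of Serpina11 also occurred in Gm28577, and 0% of those of Serpina9 were shared. The counts of Serpina11 are therefore uncertain in this respect.

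On chromosome 12 the members formed a block of 14 genes between positions 103728156 and 104414329 (GRCm38), which fell into parts with different values. The 8 members from Serpina1b to Serpina12 all had higher FPKM in every HSD17B1TG mouse than in every WT mouse, although 3 of them, Serpina1d, Serpina11 and Serpina12, had too few counts for the main test. Of all genes tested, 4.04% were separated in this direction, a share that does not cover the 3 untested members. Serpina11 and Serpina12 are named here for their position, with their values known. Serpina11 lay between 0.328 and 2.98 FPKM in HSD17B1TG and at or below 0.0591 in WT (adjusted p = 5.89e-06 in DESeq2 and 0.016 in edgeR without the filter on low counts). Serpina12 was separated by little, with 0.0582 FPKM in TG1 and 0.0551 in WT1 (adjusted p = 0.00224 in DESeq2 and 0.0613 in edgeR without the filter). These FPKM came from 4 counts in TG1 and 5 in WT1, so for Serpina12 the separation depends on the scaling between libraries. Copies that share reads are not independent members of this pattern.

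The 6 members that follow on the chromosome, Serpina3c to Serpina3n, belong to the antichymotrypsin-like Serpina3 family. Of these, 2 were tested, and neither passed. Serpina3n, an inhibitor of granzyme B and leucocyte elastase induced in inflammation, had FPKM of 13.2, 7.21, 3.17, 11.2 and 5.20 in TG1 to TG5. In WT1 to WT5 its FPKM were 14.9, 15.6, 82.8, 7.30 and 46.4. The groups overlapped only through WT4, and WT3 was the highest mouse. The log2 fold change was -2.07 (SE 0.65, edgeR adjusted p = 0.0773), and without WT3 it was -1.43 with an adjusted p-value of 0.179. The adjusted p-value was under 0.05 without WT4 (0.0290, log2 fold change -2.33) but not without any other mouse. With all mice it was under 0.05 in 1 of 9 alternative settings, DESeq2 (0.00993), and up to 0.178 in the others, the highest in limma voom.

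**Figure D3:**
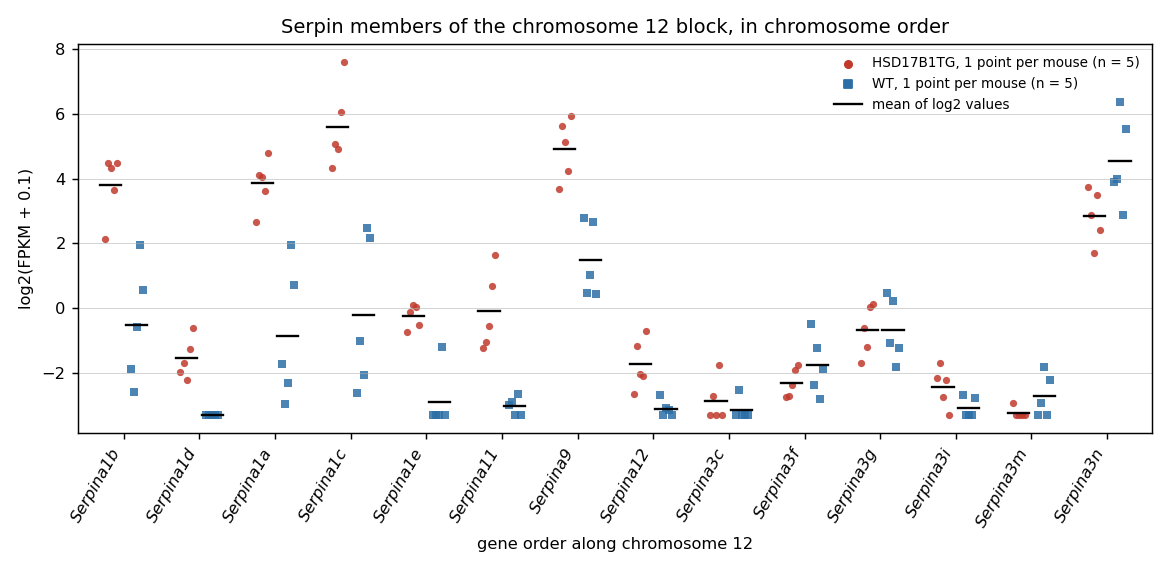
FPKM of the 14 members on chromosome 12 in their order along the chromosome, on the scale log2(FPKM + 0.1), with 1 point per mouse and a bar at the mean of the log2 values of each group (n = 5). From Serpina1b to Serpina12 every HSD17B1TG mouse lies above every WT mouse, and from Serpina3c to Serpina3n the groups overlap.

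Of the clade B members, Serpinb8, an intracellular inhibitor of furin-like proteases in epithelia, was the only one called. Its FPKM were 3.24, 7.40, 6.23, 5.45 and 5.92 in TG1 to TG5 and 2.71, 2.34, 2.03, 3.64 and 2.53 in WT1 to WT5. TG1 lay below WT4 and the other HSD17B1TG mice lay above all WT mice. Serpinb8 rose by 1.09 on the log2 scale (SE 0.24, edgeR adjusted p = 0.0317), close to the threshold on the fold, and with scaling by total counts it was 0.92 and in limma on log2(FPKM + 1) 0.85, both under that threshold. The adjusted p-value was under 0.05 without TG1, TG3 or WT4 and 0.0633 to 0.0832 without any other mouse.

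Serpinb5 (maspin), a non-inhibitory serpin of epithelial cells, showed how much a single WT mouse can weigh. Its FPKM were 1.35, 6.35, 7.42, 4.22 and 5.68 in TG1 to TG5 and 1.08, 0.536, 0.135, 7.87 and 0.657 in WT1 to WT5. WT4 was the highest of all 10 mice, and the other WT mice lay below every HSD17B1TG mouse. With all mice the log2 fold change was 1.28 (SE 0.90, edgeR adjusted p = 0.397). Over 10 alternative settings with all mice it ranged from 1.18 to 2.89, and the adjusted p-value was under 0.05 in 1 of them. Without WT4 the log2 fold change in edgeR was 3.03 with an adjusted p-value of 0.0147.

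The leucocyte inhibitors of clade B were expressed but did not pass the test. Serpinb1a, which blocks neutrophil elastase and cathepsin G, had a mean of 22.0 ± 9.39 FPKM in HSD17B1TG and 18.8 ± 4.43 in WT (log2 fold change 0.23, 95% interval -0.35 to 0.80, edgeR adjusted p = 0.669). Serpinb9, the inhibitor of granzyme B that protects cytotoxic cells from their own granules, had 8.53 ± 2.30 and 7.48 ± 1.84 FPKM (log2 fold change 0.18, 95% interval -0.26 to 0.63, edgeR adjusted p = 0.652). For Serpinb6a the values were 19.5 ± 7.18 and 22.0 ± 4.47 FPKM (log2 fold change -0.18, 95% interval -0.67 to 0.32, edgeR adjusted p = 0.701). All 3 intervals lay within a fold change of 2 in either direction. Serpinb2, the plasminogen activator inhibitor of macrophages, was at or below 0.106 FPKM in every mouse.

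Serpine2 of clade E (protease nexin 1), which inhibits thrombin, urokinase and tissue plasminogen activator, fell. Its FPKM were 2.94, 1.81, 1.88, 3.75 and 4.30 in TG1 to TG5 and 6.77, 16.2, 14.8, 2.37 and 11.4 in WT1 to WT5. All HSD17B1TG mice lay below WT1, WT2, WT3 and WT5, whereas WT4 lay within their range. It had a log2 fold change of -1.82 (SE 0.47, edgeR adjusted p = 0.0471). This call was the least stable, with an adjusted p-value of 0.00638 without WT4 and of 0.0517 to 0.108 without any other mouse, and of 0.0746 to 0.0994 with limma on log2 FPKM and with limma voom without quality weights.

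The inhibitors of coagulation were near the limit of detection in both groups, with antithrombin (Serpinc1) at or below 0.256 FPKM and heparin cofactor II (Serpind1) at or below 0.396. Neuroserpin (Serpini1), an inhibitor of tissue plasminogen activator, lay between 0.206 and 1.29 FPKM (log2 fold change -0.83, edgeR adjusted p = 0.317).

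**Figure D4:**
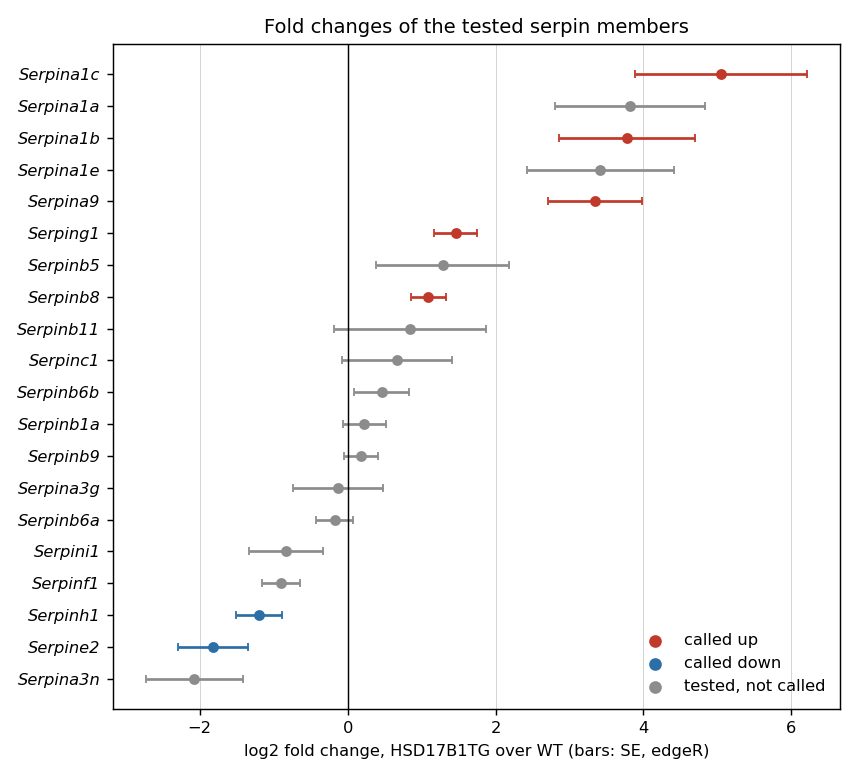
Log2 fold change of HSD17B1TG over WT for 20 tested members, with the standard error of edgeR as a bar. Values run from -2.07 for Serpina3n to 5.05 for Serpina1c, and the coloured points are the 7 members called.

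The proteases, cofactors, receptors and chaperones that work with serpins were taken from lists of 71 genes, of which 54 were tested. Of these, 3 rose and 6 fell by the rule above, against the same 2.16% and 2.08% of all genes. The 3 that rose were lysosomal cysteine proteases, out of 8 cathepsins tested. Ctsl had FPKM of 67.6, 148, 132, 153 and 380.5 in TG1 to TG5 and 28.4 to 83.2 in WT, where WT4 was the highest (log2 fold change 1.89, SE 0.45, edgeR adjusted p = 0.0396). Ctss, the cathepsin of antigen-presenting cells, and Ctsh rose by 1.40 and 1.32 on the log2 scale (adjusted p = 0.0351 and 0.0341). These are proteases that some serpins also bind.

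Of 10 leucocyte serine proteases tested, 5 had a log2 fold change above 0 and 5 below, and 3 granzymes fell. Another granzyme, Gzmm, named here after its values were seen, was higher in every HSD17B1TG mouse than in every WT mouse without passing the test (log2 fold change 1.88, edgeR adjusted p = 0.0625). Gzmb, the target of Serpinb9 and Serpina3n, was at or below 2.77 FPKM in HSD17B1TG and between 3.20 and 50.3 in WT (log2 fold change -4.42, SE 1.14, edgeR adjusted p = 0.0471). Gzmc and Gzmd had log2 fold changes of -6.99 and -5.70 (adjusted p = 0.0167 and 0.0256). Gzmb, Gzmc and Gzmd were lower in every HSD17B1TG mouse than in every WT mouse. Markers of natural killer cells, a list that includes Gzmb, fell for 4 of 8, and their summed FPKM were 6.996 to 22.5 in HSD17B1TG and 13.6 to 94.1 in WT. The neutrophil markers, cells whose elastase alpha-1-antitrypsin inhibits, had a summed FPKM of 10.1 to 17.99 in HSD17B1TG and 0.882 to 6.34 in WT, and none of the 5 tested passed.

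Among genes of plasminogen activation, none of the 5 tested passed. Plat, encoding tissue plasminogen activator, had 5.59 to 13.8 FPKM in HSD17B1TG and 4.06 to 72.4 in WT (log2 fold change -1.49, edgeR adjusted p = 0.161). Plau (urokinase) and its receptor Plaur had log2 fold changes of -0.10 and 0.80 (adjusted p = 0.939 and 0.219). Of 11 genes of coagulation and protein C tested, the thrombin receptor F2r fell (log2 fold change -1.94, SE 0.44, edgeR adjusted p = 0.0345). Tissue factor (F3), thrombomodulin (Thbd) and vitronectin (Vtn), a protein of plasma and matrix, had log2 fold changes of -0.24, -0.17 and -0.53 and did not pass (adjusted p = 0.768, 0.846 and 0.729). Prothrombin (F2) was at or below 0.121 FPKM.

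C1ra and C1s1, the complement proteases that Serping1 inhibits, did not pass the test. They had log2 fold changes of -0.42 each (adjusted p = 0.57 and 0.542), and none of the 5 tested complement and contact proteases passed. The 5 genes listed for clearance were receptors and the receptor chaperone Lrpap1. Of these 5, Lrp2 fell (log2 fold change -4.82, SE 1.07, edgeR adjusted p = 0.0336), whereas Lrp1, the main receptor of serpin complexes, had a log2 fold change of -0.74 (adjusted p = 0.232). Of the 9 genes of collagen folding that act beside Serpinh1, all had a fold change below 0 on the log2 scale. P3h1 was called down (log2 fold change -1.55, adjusted p = 0.0305), and Plod1 passed the test without reaching the fold (log2 fold change -0.81, adjusted p = 0.0299).

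**Figure D5:**
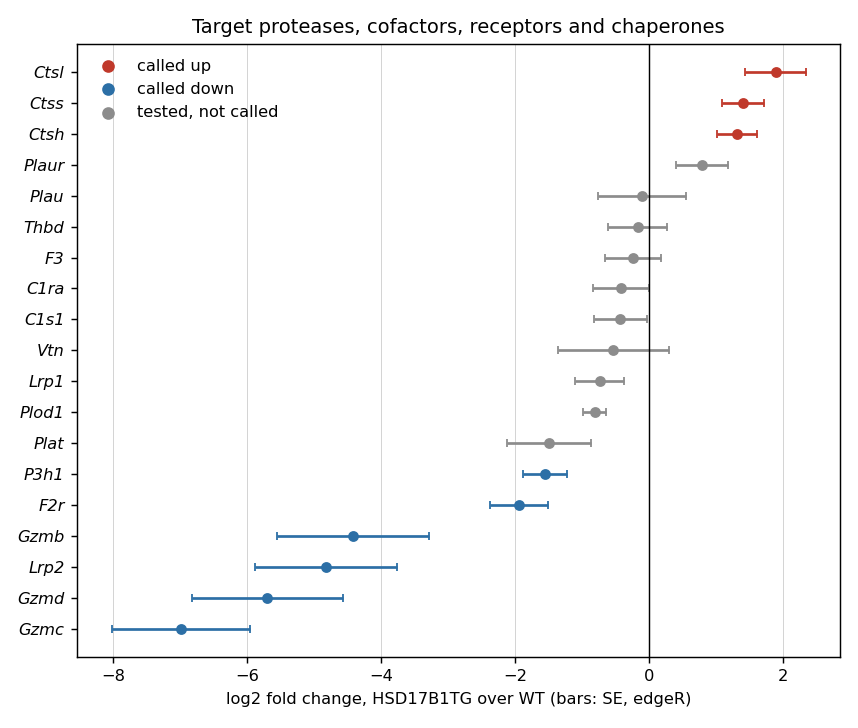
Log2 fold change of HSD17B1TG over WT, with the standard error of edgeR as a bar, for the named genes that act with serpins. The cathepsins Ctsl, Ctss and Ctsh lie at the upper end with values of 1.32 to 1.89, and Gzmc, Gzmd, Lrp2 and Gzmb lie at the lower end with values of -6.99 to -4.42.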

How the data were processed

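Uterine RNA of 5 HSD17B1TG and 5 WT mice was sequenced by the authors as paired-end reads of 150 bp and aligned with HISAT2 2.0.5, per the submitters' processing notes, against GRCm38 and its Ensembl 94 annotation. The authors deposited raw counts per gene, FPKM, and a signal that is the count divided by 1 size factor per mouse. The deposited FPKM use the same size factors and the length of each gene. The authors' own fold changes and p-values, and their tables of enriched terms, were not used. Not given in the sources used here are the counting program, whether it used strand, and what it did with reads matching several genes.

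For the main test, edgeR 4.0.16 (R 4.3.3) was run on the deposited counts with filterByExpr, TMM, glmQLFit and glmQLFTest and no covariate. P-values of the 16993 genes that passed the filter were adjusted by the Benjamini-Hochberg method. The standard error is the size of the log2 fold change divided by the square root of the F statistic. All adjusted p-values are from this fit unless DESeq2 1.42.0 or limma 3.58.1 is named. A floor of 3 counts was used where a group was at 0, and this floor covers counting error only. The fit was tested on simulated counts. Groups follow the labelled genotype. The 95% intervals of fold changes use the normal quantile and include the spread between mice. The labels do not say whether mice were littermates, and name no batch.

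Members, lists, tests and the genes named were chosen with earlier results of these data known. Named are all members called or with an adjusted p-value under 0.05, the 5 members with the highest mean FPKM, and members and partner genes picked by role. Of the members picked by role, 1 is counted but not reported here, and members outside the rule are given by counts and ranges. Of the other names, Serpina5 and Serpina6 were not analysed here, nor were the partner genes Plg and Elane. Promoters are from the RefSeq table (GRCm38.p6, 35 of 40 members matched), and transcripts from GENCODE M21, in which all 40 members had the coordinates of the deposited table. A motif was searched for on both strands. The alternatives were DESeq2, limma voom with and without quality weights, limma on log2(FPKM + 1) and log2(FPKM + 0.1), RLE or total-count scaling, other filters, other thresholds, summed families and leaving out each mouse in turn.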

Additional observations from a re-analysis of the deposited data

Results flagged for a closer look

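In 42 groups of 5 mice, the values of the 21 named members were checked for a mouse far from the others. The scale was log2(FPKM + 1). Among normally distributed values, chance alone flags about 1 of 20 such groups. Where all other mice of a group are at 0, any value above 0 is flagged, so this rate does not apply. The check found 4. Serpina1e was 0.329 FPKM in WT4 and 0 in the other WT mice. Serpinf2 was 0.187 FPKM in WT3, compared with 0.0208 to 0.0453 in the others. Serpind1 was 0.396 FPKM in TG4 compared with 0.0787 FPKM in the next highest HSD17B1TG mouse, and Serpinb2 was 0.0173 FPKM in WT1 and 0 in the other WT mice. These genes were below 1 FPKM in every mouse.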

How the results depend on the processing

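With each of the 10 mice left out in turn, the number of members called up ranged from 0 to 8, called down from 0 to 3 and with an adjusted p-value under 0.05 from 0 to 13, while the median log2 fold change of the members tested ranged from 0.48 to 0.94. The highest of these values were all found without WT4. Calls over all genes moved as well, from 367 up and 354 down with all mice to 38 up and 56 down without WT2, 38 up and 27 down without TG5, and 888 up and 666 down without WT4. The cause was not tested. With all mice, members with an adjusted p-value under 0.05 numbered 14 in DESeq2 and 11 in limma voom with quality weights. Members called down numbered 1 in limma voom, in limma on log2(FPKM + 1), in limma on log2(FPKM + 0.1) and without the filter on low counts. Members called up stayed between 4 and 7 under all settings that kept the 10 mice. Over all genes, DESeq2 called 923 up and 674 down. Scaling by total counts moved the median log2 fold change of all genes to -0.17 and the calls to 286 up and 494 down, and 5 members were called up and 3 down, Serpinf1 being the third. Of the named members tested, Serpinb1a alone changed direction, with a range of -0.0051 without TG2 to 0.40 without TG1. No paired analysis was done because the labels name no pairing between mice of the groups. Groups of 5 mice and WT uteri of unknown cycle phase limit what these values can show.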

Other observations

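Both genes with a Serpin name that the table does not annotate as protein-coding were expressed at low levels. Serpina3h, a pseudogene of the Serpina3 family, lay between 0.361 and 1.34 FPKM in HSD17B1TG and between 0 and 1.21 in WT (log2 fold change 1.13, edgeR adjusted p = 0.398). Serpinb10, annotated as a polymorphic pseudogene, was at or below 0.259 FPKM in HSD17B1TG and had a mean of 0.0831 FPKM in WT. Angiotensinogen (Agt), a hormone precursor with the serpin fold but another name, lay between 0.20 and 5.42 FPKM in HSD17B1TG and between 0.13 and 1.36 in WT (log2 fold change 1.60, edgeR adjusted p = 0.265). The coding sequences of 25 of the 40 members held the consensus of the hinge of the reactive centre loop, and 15 did not. The 15 include Serpinh1, Serpinf1 and Serpinb5, but also the inhibitors Serping1, Serpind1 and Serpinf2, and Serpina1a, alone among the alpha-1-antitrypsin copies.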
